A study of Mus musculus with 6 samples.

Results

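The genes described here encode the laminins, the trimeric proteins that build basement membranes, and the integrins, the receptors through which cells hold to them. Members were taken by a rule on gene symbol: Lama, Lamb or Lamc followed by a digit, or Itga or Itgb followed by a number or by l, m, x, d, e or v. Earlier results of these data were known when this rule was chosen. The rule found 41 of 19937 measured genes. They are 10 laminin chains, 27 integrin subunits and 4 genes that share the symbol but encode no integrin subunit. The 27 subunits were kept in 3 classes of 9 each, epithelial, leukocyte and other, by the cells in which they are best known.

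RNA of whole mouse kidney was measured on 6 Affymetrix arrays, 3 from wild-type littermate controls and 3 from NICD1 mice. The NICD1 mice carried Pax8rtTA and TREICNotch1, a transgene pair in which a Pax8-driven transactivator switches on the Notch1 intracellular domain, the active part of the receptor, in tubule epithelium. By its title the study treats Notch as a target in clear cell renal cancer. The comparison asks how gene expression in the kidney differs once Notch1 is active in the tubule. Strain, age, sex and the inducing treatment are not given in the sources used here, nor whether each sample is a separate animal, so p-values measure the spread between these samples, which may be technical. In bulk tissue, fewer cells of a type and less RNA per cell cannot be told apart.

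A laminin is a cross of 1 alpha, 1 beta and 1 gamma chain. The alpha chain ends in globular domains that bind integrins and dystroglycan, and the gamma chain from Lamc1 is shared by most trimers. An integrin is a pair of 1 alpha and 1 beta subunit. In the kidney, laminin and its receptors hold tubule cells polarised on their basement membrane and form part of the glomerular filter, while beta-2 integrins serve leukocytes in adhesion and uptake of particles.

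For orientation in the regulatory sequence, promoter windows of 3 of the members that had one are shown: Lamb1 and Itgam, which rose in NICD1 kidneys, and Itgb8, which fell. Each is the 250 bases before the RefSeq transcription start in assembly GRCm38.p6, written 5′ to 3′ on the gene's strand. Capitals mark matches, on either strand, to 3 short motifs. These are TGGGAA, the core of the motif of RBPJ (the protein through which Notch reaches DNA), TGANTCA for AP-1 and GAGGAA for the myeloid factor PU.1.
Lamb1, chr12:31265043-31265292, plus strand: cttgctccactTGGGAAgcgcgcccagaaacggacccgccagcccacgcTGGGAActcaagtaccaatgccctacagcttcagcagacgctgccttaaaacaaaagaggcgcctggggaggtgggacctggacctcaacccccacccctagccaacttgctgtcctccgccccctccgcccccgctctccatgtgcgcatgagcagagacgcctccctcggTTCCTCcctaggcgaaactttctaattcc
Itgam, chr7:128062390-128062639, plus strand: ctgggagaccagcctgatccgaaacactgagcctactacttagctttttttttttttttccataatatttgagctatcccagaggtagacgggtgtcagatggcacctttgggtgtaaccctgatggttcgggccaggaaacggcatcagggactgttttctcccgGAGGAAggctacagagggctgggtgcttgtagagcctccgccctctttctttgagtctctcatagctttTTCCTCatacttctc
Itgb8, chr12:119238277-119238526, minus strand: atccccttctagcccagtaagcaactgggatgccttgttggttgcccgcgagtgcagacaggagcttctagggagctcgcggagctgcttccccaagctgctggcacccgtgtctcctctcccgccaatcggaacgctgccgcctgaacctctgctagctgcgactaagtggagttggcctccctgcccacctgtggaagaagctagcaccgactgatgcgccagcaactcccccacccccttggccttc

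The Lamb1 window held 2 matches to TGGGAA, starting 239 and 201 bases before the start site, and 1 to GAGGAA at 29 bases. That of Itgam held 2 matches to GAGGAA, at 84 and 15 bases. The GAGGAA match of Lamb1 and the one nearer the start in Itgam lie on the opposite strand and read TTCCTC in the lines above. The Itgb8 window held none of the 3 motifs. Windows were found for 27 of the 41 members, 30 windows in all, but not for Lama1 or Lamc1. TGGGAA occurred in 5 of these 30 and in 21.6% of all 32851 promoter windows, TGANTCA in 1 of 30 and in 6.75%, and GAGGAA in 14 of 30 and in 23.3%. The windows with TGGGAA were those of Lamb1 and Lamb3, called higher, and of Lama2 and Itga2b, not called. No 2 matches overlap in the printed windows, and a match of 6 or 7 letters describes the sequence and not a bound site.

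Expression is given as the log2 value after the authors' RMA normalization, and differences are NICD1 minus control on that scale, so that 1 unit is a doubling. A gene is called changed where limma's adjusted p is under 0.05 over all 19937 genes. Of the 41 members, 18 were called higher, 4 lower and 19 were not called. Over all genes 17.8% were called higher and 14.9% lower, 32.7% together, so the share of members called higher (43.9%) stood above that background, and the share called lower (9.76%) below it. The median difference of the members was 0.34 log2, beside 0.015 over all genes. The 3 NICD1 arrays lay wholly above the 3 control arrays for 20 members and wholly below for 4. Over all genes the share was 23.7% above and 19.7% below, 43.4% together. When the arrays were centred on their medians over all probe sets kept (4.93 to 5.11), the median difference over all genes became -0.091. Calls over all genes then went from 3551 higher and 2978 lower to 2619 and 3710, and the higher share of calls from 54.4% to 41.4%. Members with small differences therefore depend on this choice, and those whose call or direction turned are named below or in the closing section.

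Notch1, the gene whose intracellular domain the transgene makes, stood at 6.65, 6.59 and 6.45 in controls and 10.29, 10.30 and 9.99 in NICD1 arrays, so its level follows the labels on all 6 arrays, although the probes may read the transgene, the endogenous gene or both. The medians over all genes lay between 5.26 and 5.41 on the 6 arrays. The kidney markers of the proximal tubule, 6 of 6 called lower, averaged 11.19 to 11.22 in controls and 6.14 to 7.47 in NICD1. The part of this fall in the differences of laminins and epithelial integrins was not tested.

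Most of the laminin chains rose, led by Lama1, Lamc1, Lamb1 and Lama5, and Lama3 alone among the 10 was called lower. Of these 10, 6 were called higher (60%), 1 lower (10%) and 3 not called, with a median difference of 0.69 log2. The shares over all genes were 17.8% higher and 14.9% lower. Lama1, an alpha chain that is prominent in the basement membranes of the embryo and of kidney tubules, stood at 5.90, 6.44 and 6.30 in controls and at 8.83, 8.63 and 8.92 in NICD1 arrays. It had the largest difference of any member, 2.58 log2 (SE 0.15, adjusted p = 3.15e-06), a 5.98-fold rise. All 3 NICD1 arrays were more than 2 units above the highest control, and they lay closer together than the controls did.

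Lama5, the alpha chain of the mature glomerular and collecting duct basement membranes, read 7.19, 7.18 and 7.45 in controls against 8.58, 8.52 and 8.42 in NICD1. Its rise of 1.23 log2 (SE 0.11, adjusted p = 3.40e-05) was 2.35-fold, and the groups did not overlap. Lama3, the alpha chain of the laminin that anchors stratified epithelia, went the opposite way, from 5.58, 6.74 and 6.47 to 4.60, 4.62 and 4.94. The difference was -1.54 log2 (SE 0.26, adjusted p = 0.00146), a 2.91-fold fall, and its NICD1 values lay under the array medians. Control replicate 1 stood below the other controls for Lama3, yet above every NICD1 array.

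The remaining alpha chains did not pass. Lama2, the chain of muscle and mesenchymal basement membranes, was 6.06, 5.75 and 5.85 in controls and 5.64, 6.06 and 5.06 in NICD1 (-0.30 log2, adjusted p = 0.379). Lama4, the chain of blood vessel walls, was 5.30, 5.50 and 5.38 against 6.18, 5.81 and 5.20 (0.34 log2, adjusted p = 0.288). For both genes NICD1 replicate 3 was the lowest of all 6 arrays, and the groups overlapped. Without that array Lama4 was called higher, at 0.60 log2 (adjusted p = 0.0106). The same array had the lowest mean of the 6 endothelial markers, which averaged 6.99 to 7.02 in controls and 6.40, 6.26 and 5.43 in NICD1 replicates 1 to 3, with 4 of 6 called lower. It also had the lowest mean of the 7 fibroblast and smooth muscle markers, 6.77, 6.70 and 5.90 in NICD1 against 6.16 to 6.37 in controls, 3 of 7 called higher. The part of these cell types in the values of Lama2 and Lama4 was not tested.

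All 3 beta chains rose. Lamb1, the beta chain of developing and tubular basement membranes, went from 8.74, 8.86 and 8.70 in controls to 10.11, 10.13 and 9.91 in NICD1, a rise of 1.28 log2 (SE 0.11, adjusted p = 1.93e-05). Lamb2, which takes the place of Lamb1 in the mature glomerular basement membrane, read 6.90, 6.89 and 6.87 in controls and 7.48, 7.39 and 7.25 in NICD1. Its rise was 0.49 log2 (SE 0.10, adjusted p = 0.00432), 1.41-fold, beside 2.43-fold for Lamb1. Lamb3, the beta partner of Lama3 in the anchoring laminin, rose from 5.11, 4.79 and 4.88 to 5.91, 5.65 and 5.88, or 0.89 log2 (adjusted p = 0.000452). Lama3 and Lamb3, whose products join in the same trimer, were thus called in opposite directions. For each beta chain every NICD1 array was above every control array.

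Of the gamma chains, Lamc1 read 6.91, 7.0 and 6.87 in controls against 8.82, 8.69 and 8.51 in NICD1, a 3.35-fold rise (1.75 log2, SE 0.11, adjusted p = 4.52e-06). The chains of the trimer joining Lama1, Lamb1 and Lamc1 products, and those of the trimer with Lama5 in place of Lama1, all rose. Lamc3, a gamma chain of few tissues, was 6.34, 6.09 and 6.13 in controls and 5.60, 5.93 and 6.11 in NICD1, where 2 of 3 arrays lay below all controls (-0.31 log2, adjusted p = 0.149). After centring of the arrays it was called lower (-0.41 log2, adjusted p = 0.0394).

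**Figure D1:**
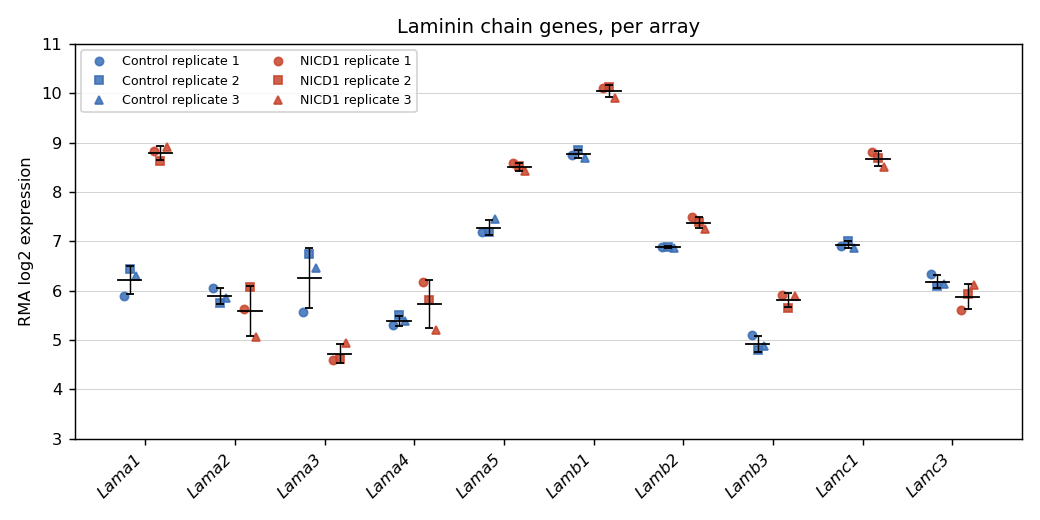
RMA log2 expression (vertical axis) of the 10 laminin chain genes in each control (blue) and NICD1 (red) array, with a symbol for each replicate number; black bars are the mean and SD of 3 arrays. Lama1, Lama5, Lamb1, Lamb2, Lamb3 and Lamc1 lie higher in every NICD1 array, Lama3 lies lower in every one, and Lama2, Lama4 and Lamc3 overlap.

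The epithelial integrins mostly rose, among them the laminin receptors Itga3, Itga6 and Itgb4, while Itgb8 fell. Of 9, 6 were called higher (66.7%), 1 lower (11.1%) and 2 not called, with a median difference of 0.83 log2. Beside this, 17.8% of all genes were called higher and 14.9% lower. Itgb1, the beta subunit shared by the largest number of integrins, was 8.82, 8.94 and 8.88 in controls and 9.58, 9.60 and 9.47 in NICD1. Its rise was 0.67 log2 (SE 0.10, adjusted p = 0.000592), 1.59-fold, with both groups tight and apart.

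Itga3, which pairs with Itgb1 to bind laminin and is needed for the glomerular filter, rose from 6.32, 6.42 and 6.36 to 7.24, 7.34 and 7.02 (0.83 log2, adjusted p = 0.000362). Itga6, a laminin-binding alpha subunit that pairs with Itgb1 or Itgb4, rose from 8.63, 8.19 and 8.04 to 9.83, 9.36 and 9.27, by 1.20 log2 (SE 0.19, adjusted p = 0.000903). Replicate 1 was the highest array within each group, and the groups did not overlap. Itgb4, whose long tail links Itga6 to the keratin network through plectin, rose from 5.68, 5.35 and 5.56 to 6.63, 6.75 and 6.77 (1.19 log2, SE 0.11, adjusted p = 4.66e-05). Both subunits of the hemidesmosome integrin therefore rose, 2.30-fold and 2.27-fold, with 95% intervals of 0.78 to 1.63 and 0.93 to 1.44 log2.

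Itga2, the alpha subunit of an epithelial collagen and laminin receptor, rose from 4.23, 4.20 and 4.15 to 5.65, 5.37 and 5.47. The difference was 1.30 log2 (SE 0.11, adjusted p = 1.75e-05), from a level under the array medians to one near them. The control arrays differed by less than 0.1 unit, and the lowest NICD1 array was over 1 unit higher.

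The integrins built on Itgav, which bind the RGD sequence of matrix proteins and of latent TGF-beta, showed no call in the alpha subunit and calls in opposite directions among its 5 beta partners, of which Itgb1 (above) and Itgb6 rose, Itgb8 fell and Itgb5 and Itgb3 were not called. Itgav itself was 8.71, 8.69 and 8.71 in controls and 8.80, 8.74 and 8.71 in NICD1 (difference 0.049 log2, 95% interval -0.16 to 0.26, adjusted p = 0.764), and its sign turned after centring of the arrays (-0.057). Itgb6, an epithelial partner that activates latent TGF-beta, rose from 8.26, 8.27 and 7.95 to 9.47, 9.63 and 9.84, by 1.49 log2 (SE 0.13, adjusted p = 3.24e-05), the largest rise among the epithelial integrins. Itgb8, another partner that activates latent TGF-beta, went from 9.85, 9.81 and 9.78 to 8.63, 8.53 and 8.72, a fall of 2.27-fold (-1.18 log2, SE 0.10, adjusted p = 2.00e-05). Itgb5, a vitronectin-binding partner, was 8.14, 8.26 and 8.45 against 8.54, 8.55 and 8.38 (0.21 log2, adjusted p = 0.222), overlapping, and was called higher after quantile normalization (0.36, adjusted p = 0.0224). Itgb6 and Itgb8 were called in opposite directions, with groups apart for each.

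**Figure D2:**
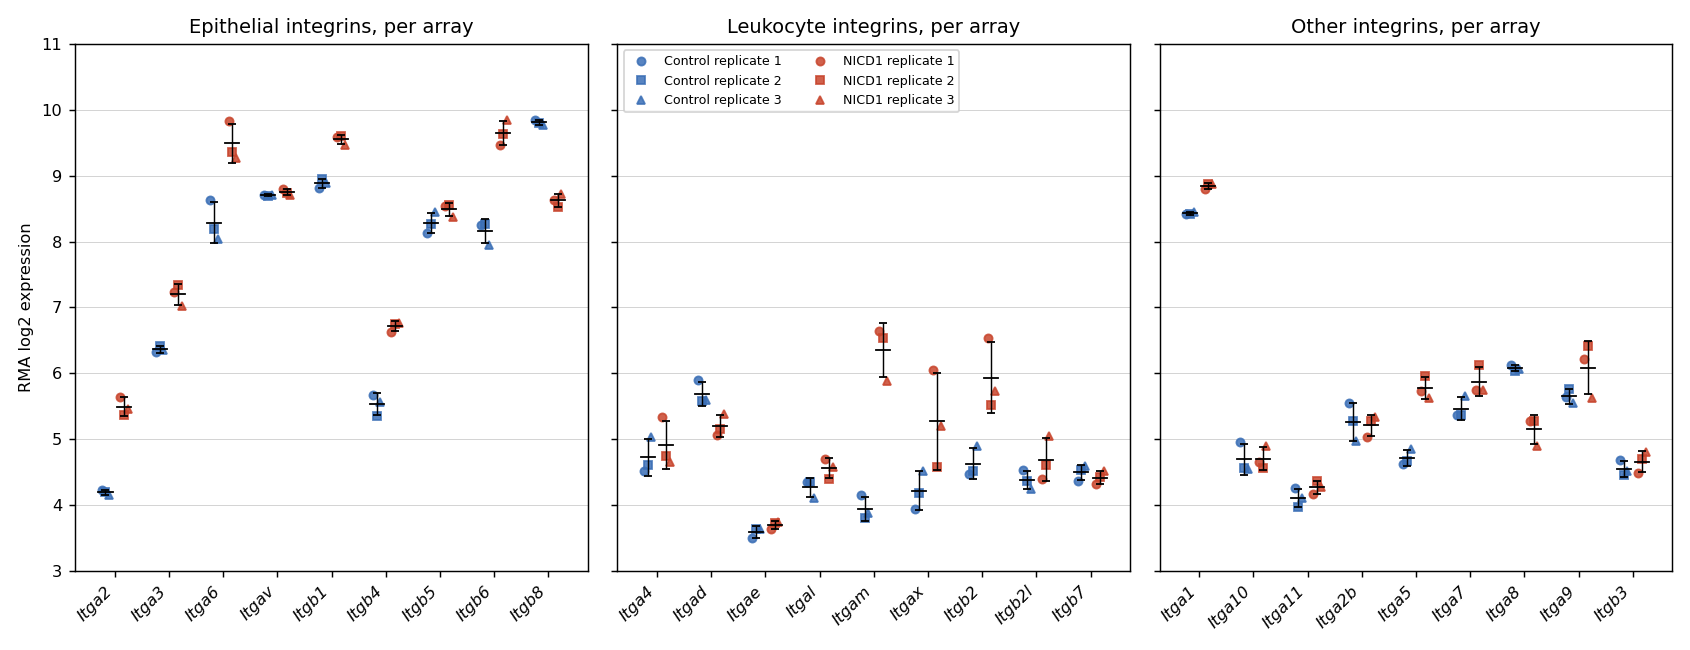
RMA log2 expression (vertical axis) of the 27 integrin subunit genes in each control (blue) and NICD1 (red) array, in 3 panels by class; symbols mark the replicate number and black bars the mean and SD of 3 arrays. In the left panel 6 genes lie higher in all NICD1 arrays and Itgb8 lower, and in the middle panel Itgam, Itgb2 and Itgax lie higher with wide spread among NICD1 arrays.

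Of the other integrins, of mesenchymal, muscle, vascular and platelet cells, the fibronectin receptor subunit Itga5 rose, Itga1 rose slightly and Itga8 fell. Thus 2 of 9 were called higher (22.2%), 1 lower (11.1%) and 6 not called, with a median difference of 0.16 log2. These shares lay near those over all genes, 17.8% and 14.9%. The difference between classes was not tested. Itga5, the alpha subunit of the main fibronectin receptor, rose from 4.63, 4.67 and 4.86 to 5.73, 5.95 and 5.63 (1.05 log2, SE 0.12, adjusted p = 0.000134), 2.07-fold. Its ligand Fn1 rose by 2.84 log2 (adjusted p = 2.11e-06). Itga1, a collagen receptor subunit of mesangial and other stromal cells, rose from 8.42, 8.42 and 8.46 to 8.80, 8.88 and 8.87, a small but regular difference of 0.42 log2 (SE 0.09, adjusted p = 0.00654).

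Itga8, the mesenchymal and mesangial receptor of nephronectin, fell from 6.13, 6.03 and 6.07 to 5.28, 5.27 and 4.89 (-0.93 log2, SE 0.12, adjusted p = 0.00037). Its ligand Npnt rose by 1.24 log2 (adjusted p = 0.00212), so receptor and ligand were called in opposite directions. Itga8 also read lowest in NICD1 replicate 3, but its other NICD1 arrays were below every control as well.

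Among those not called, Itga7, a laminin-binding subunit of muscle, was 5.36, 5.37 and 5.66 against 5.74, 6.13 and 5.75. The groups did not overlap, and the difference of 0.41 log2 had an adjusted p of 0.0503. It was called higher under 5 alternatives, 3 of which leave out an array. Itga9, a subunit of smooth muscle, endothelium and other cells that binds tenascin, was 5.64, 5.77 and 5.54 against 6.21, 6.41 and 5.63 (0.43 log2, adjusted p = 0.111), with the lowest NICD1 value in replicate 3. Without that array it was called, at 0.66 log2 (adjusted p = 0.00373), and with array weights at 0.54 (adjusted p = 0.0282). Itga10 and Itga11, collagen receptor subunits of cartilage and fibroblasts, and the platelet subunits Itga2b and Itgb3 differed by 0.012, 0.16, -0.049 and 0.11 log2, all with overlapping groups and adjusted p of 0.341 or more. The 3 platelet markers measured, Pf4, Ppbp and Gp9, were not called either.

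The leukocyte integrins split. Itgam, Itgax and their common partner Itgb2 rose, Itgad fell, and the other 5 were not called. Of 9, 3 were thus called higher (33.3%), 1 lower (11.1%) and 5 not called, with a median difference of 0.29 log2. Among all genes 17.8% were called higher and 14.9% lower. Itgam, known as CD11b and borne by macrophages, monocytes and neutrophils, stood at 4.15, 3.80 and 3.88 in controls and 6.65, 6.53 and 5.88 in NICD1. The difference was 2.41 log2 (SE 0.20, adjusted p = 1.70e-05), 5.32-fold, the largest among the 27 integrin subunits. Controls lay under the array medians and no detection calls are given, so the fold may be understated. A pair of probe sets annotated to Itgam together with Rpl35, and not used here, differed by 1.46 and 1.35 log2. Their control values, 5.97, 5.42 and 5.27 for the first and 8.48, 7.97 and 8.09 for the other, lay above those of Itgam. They may read Rpl35, Itgam or both.

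Itgb2, the beta subunit that Itgam, Itgax, Itgal and Itgad share, rose from 4.47, 4.52 and 4.90 to 6.54, 5.52 and 5.74 (1.30 log2, SE 0.24, adjusted p = 0.00251). Itgax, known as CD11c and used as a marker of dendritic cells and some macrophages, was 3.95, 4.19 and 4.53 in controls and 6.04, 4.58 and 5.20 in NICD1. Its difference of 1.06 log2 (SE 0.32, adjusted p = 0.0288) had the widest error of the called members. The lowest NICD1 array lay 0.1 unit or less above the highest control, and the call was lost without control replicate 1 (0.92), without control replicate 2 (1.04), without NICD1 replicate 3 (1.09), with array weights (0.77) and with a trended, robust variance. Without NICD1 replicate 1 its difference was 0.67.

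NICD1 replicate 1 was the highest array for Itgam, Itgb2 and Itgax. It was also the highest for the mean of the 8 macrophage markers, which read 7.14, 6.56 and 6.27 in NICD1 replicates 1 to 3 against 5.08 to 5.11 in controls. The order of the other NICD1 arrays was not shared by all. Itgam, like the marker mean, was lower in replicate 3 than in replicate 2, while Itgb2 and Itgax were higher. Of these markers 7 of 8 were called higher, and Csf1r was not. Without NICD1 replicate 1 Itgb2 still differed by 1.0 log2 (adjusted p = 0.00119). The 7 neutrophil markers averaged 3.36 to 3.40 in controls and 3.42 to 3.52 in NICD1, with 1 of 7 called. The 7 T cell markers averaged 4.0 to 4.03 and 4.12 to 4.36. Of these 7, 2 were called higher, Cd8a (1.38 log2) and Cd3e (0.30), and the median difference of the list was 0.046. The 4 B cell markers averaged 3.63 to 3.76 and 3.36 to 3.59, with 1 called lower. The part of macrophage number in the rise of these integrins was not tested.

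Itgad, the alpha subunit that lies beside Itgax in the genome as Itgax lies beside Itgam, was called in the opposite direction to these neighbours. It read 5.90, 5.57 and 5.60 in controls and 5.06, 5.16 and 5.38 in NICD1 (-0.49 log2, SE 0.13, adjusted p = 0.0167). A further probe set of Itgad, dimmer on average, differed by 0.067 (adjusted p = 0.779) when it stood for the gene, so the probe sets disagree. The call was lost with the mean of both (-0.21) and without control replicate 1 (-0.39), NICD1 replicate 1 (-0.42) or NICD1 replicate 2 (-0.47).

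Itgal, which pairs with Itgb2 on lymphocytes and other leukocytes, was 4.35, 4.35 and 4.11 in controls and 4.70, 4.40 and 4.58 in NICD1. The groups did not overlap, but the difference of 0.29 log2 had an adjusted p of 0.105. Itga4 and Itgb7, which form the lymphocyte receptor for Vcam1 and Madcam1, differed by 0.19 and -0.081 log2 (adjusted p = 0.559 and 0.655). Itgae, borne by intraepithelial T cells and some dendritic cells and a receptor for E-cadherin, differed by 0.11 (95% interval -0.11 to 0.33). Itgb2l, a beta-2-like gene of granulocytes, differed by 0.30 (adjusted p = 0.211). All control and NICD1 values of Itga4, Itgae, Itgal, Itgb2l and Itgb7 lay under the array medians, so a change in a small population could be missed. Among ligands of the leukocyte integrins, Vcam1 rose by 3.22 log2, Icam1 by 1.72 and the E-cadherin gene Cdh1 by 1.23. Madcam1, at -0.05 log2 (adjusted p = 0.899), and Icam2, a ligand of Itgal, at -0.20 log2 (adjusted p = 0.156), were not called. All NICD1 arrays of Icam2 lay below the controls, and it was called lower after quantile normalization (-0.31, adjusted p = 0.0375).

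**Figure D3:**
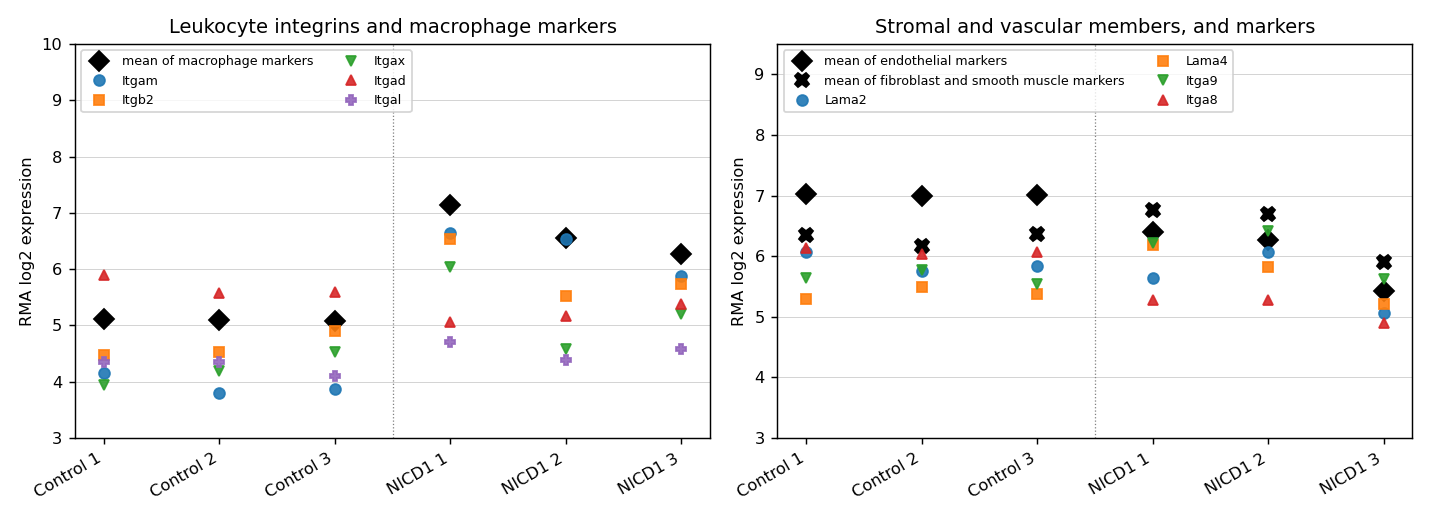
RMA log2 expression (vertical axis) on each of the 6 arrays (horizontal axis), with the mean of a marker list in black and single members in colour. On the left, Itgam, Itgb2 and Itgax and the mean of 8 macrophage markers are highest in NICD1 replicate 1; on the right, Lama2, Lama4 and Itga8 and the means of 6 endothelial and of 7 fibroblast and smooth muscle markers are lowest in NICD1 replicate 3, and Itga9 is lowest there among the NICD1 arrays.

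Of the 4 genes that share the symbol without encoding a subunit, 1 was called higher (25%) and 0 lower. Among all genes these shares were 17.8% and 14.9%, so 1 of 4 called higher lay near the background. Itgb1bp2, a muscle protein that binds the beta-1 tail, was 4.45, 4.21 and 4.19 in controls and 4.84, 4.77 and 4.58 in NICD1 (0.45 log2, adjusted p = 0.0155). That call was lost after centring (0.35) and without control replicate 2 (0.42), control replicate 3 (0.40) or NICD1 replicate 2 (0.43). Itgb1bp1, which binds the beta-1 tail and restrains the receptor, differed by -0.34 (adjusted p = 0.101) and was called lower after quantile normalization (-0.43, adjusted p = 0.0408) and without control replicate 1 (-0.45, adjusted p = 0.0475). The centromere protein gene Itgb3bp differed by -0.018 and the secreted protein gene Itgbl1 by -0.075, neither called.

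**Figure D4:**
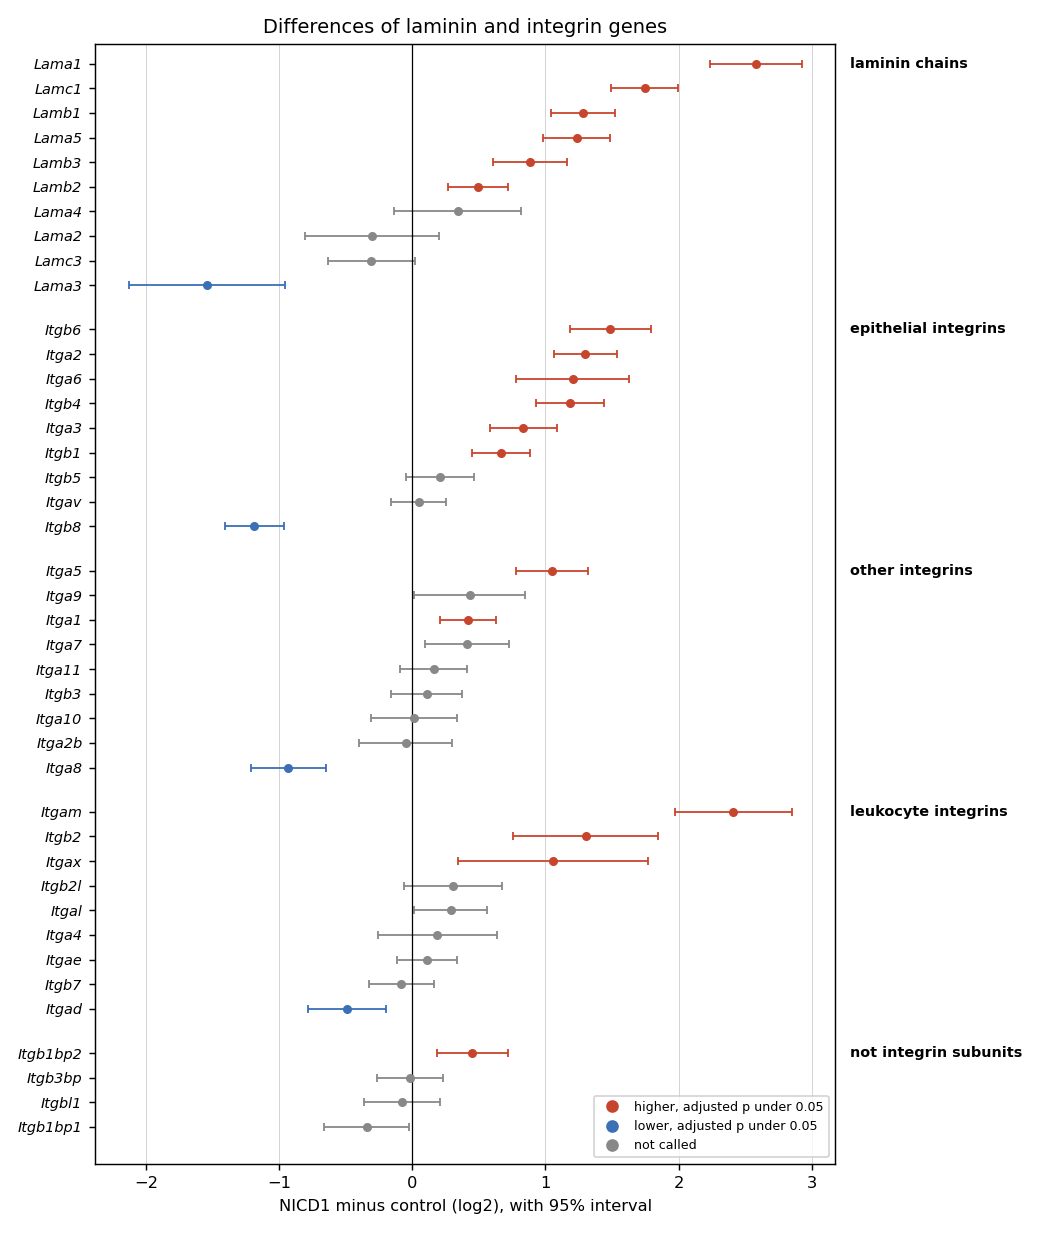
Difference of NICD1 and control in log2 units (horizontal axis) for the 41 members, by class, with the unadjusted 95% interval of limma's moderated test; red and blue mark genes called higher and lower at adjusted p under 0.05 and grey those not called. Lama1 at 2.58 and Itgam at 2.41 lie farthest to the right, and Lama3, Itgb8, Itga8 and Itgad are the 4 called lower.

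The proteins that laminins and integrins meet on either side of the membrane were compared by lists. Of 60 measured genes in 5 lists, 36 were called higher (60%) and 5 lower (8.33%), with a median difference of 0.54 log2. Over all genes these shares were 17.8% and 14.9%. Earlier results of these data were known when the lists were chosen, so the counts are not independent of the data. Of 16 basement membrane partners, 10 were called higher, 2 lower and 4 not called. The proteoglycan gene Agrn, which binds laminin, rose by 2.19 log2 (SE 0.11, adjusted p = 1.56e-06), and Col4a1 and Col4a2, the collagen chains of all basement membranes, by 2.21 and 1.94. Nid1 and Nid2, the nidogens that bridge laminin to this collagen, rose by 0.97 and 1.40. The 2 that were lower, Col4a3 and Col4a4, are chains of the mature glomerular and distal tubule network and differed by -1.47 and -1.64 log2. Col4a5, another Col4 chain of the list, did not fall with them. It was not called (0.20 log2, adjusted p = 0.172), and all its NICD1 arrays lay above the controls. Of the 4 podocyte markers 2 were called lower and 1 higher, with means of 5.82 to 5.98 in the control arrays against 5.36 to 5.54 in NICD1. Of the 5 loop and distal tubule markers 4 were called lower and 1 higher (9.78 to 10.11 against 7.40 to 7.59), and of the 6 collecting duct markers 4 lower and 1 higher (7.33 to 7.45 against 5.81 to 6.58). The part of these cell types in the values of Col4a3 and Col4a4 was not tested. Col4a3, Col4a5, the nidogens, Npnt, Icam1, Icam2, Madcam1, Cdh1 and the lower focal adhesion genes are named after their values were seen.

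Of 6 laminin receptors that are not integrins, 5 were called higher (83.3%) and 0 lower, beside 17.8% and 14.9% of all genes. Bcam, a receptor for the Lama5 chain, rose from 8.02, 7.71 and 7.61 to 9.63, 9.66 and 9.68 (1.88 log2, adjusted p = 4.83e-06). The syndecan Sdc1 rose by 1.08 and the dystroglycan gene Dag1 by 0.86. Rpsa rose by 1.14, but it also encodes a ribosomal protein and has many near-identical pseudogenes, so its value is uncertain. Of 3 hemidesmosome genes, only Plec, the plectin that binds the Itgb4 tail, was called (1.09 log2), while Col17a1 and Dst differed by 0.17 and -0.0062.

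Of 13 integrin ligands, 9 were called higher (69.2%) and 0 lower, where all genes gave 17.8% and 14.9%. The fibrinogen chain genes Fgb and Fgg, whose product is bound by the receptor of Itgam and Itgb2, rose by 4.28 and 3.38 log2 (adjusted p = 2.74e-07 and 4.52e-06). Of 22 focal adhesion genes, which link integrin tails to actin, 11 were called higher (50%), 3 lower (13.6%) and 8 not called. The share called lower lay near the 14.9% over all genes. The actin cross-linkers Actn1 and Flna rose by 2.87 and 1.80 log2, vinculin (Vcl) by 1.36 and the epithelial kindlin Fermt1 by 0.93. Those that were lower were Tln2 (-0.66), Lims2 (-1.28) and Tns1 (-0.67), and the call of Tns1 was lost under 5 alternatives, 3 of them leaving out an array (-0.53 without control replicate 1, -0.52 without NICD1 replicate 1 and -0.62 without NICD1 replicate 3). The widespread talin Tln1, which switches integrins on, differed by -0.018 (95% interval -0.23 to 0.19).

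**Figure D5:**
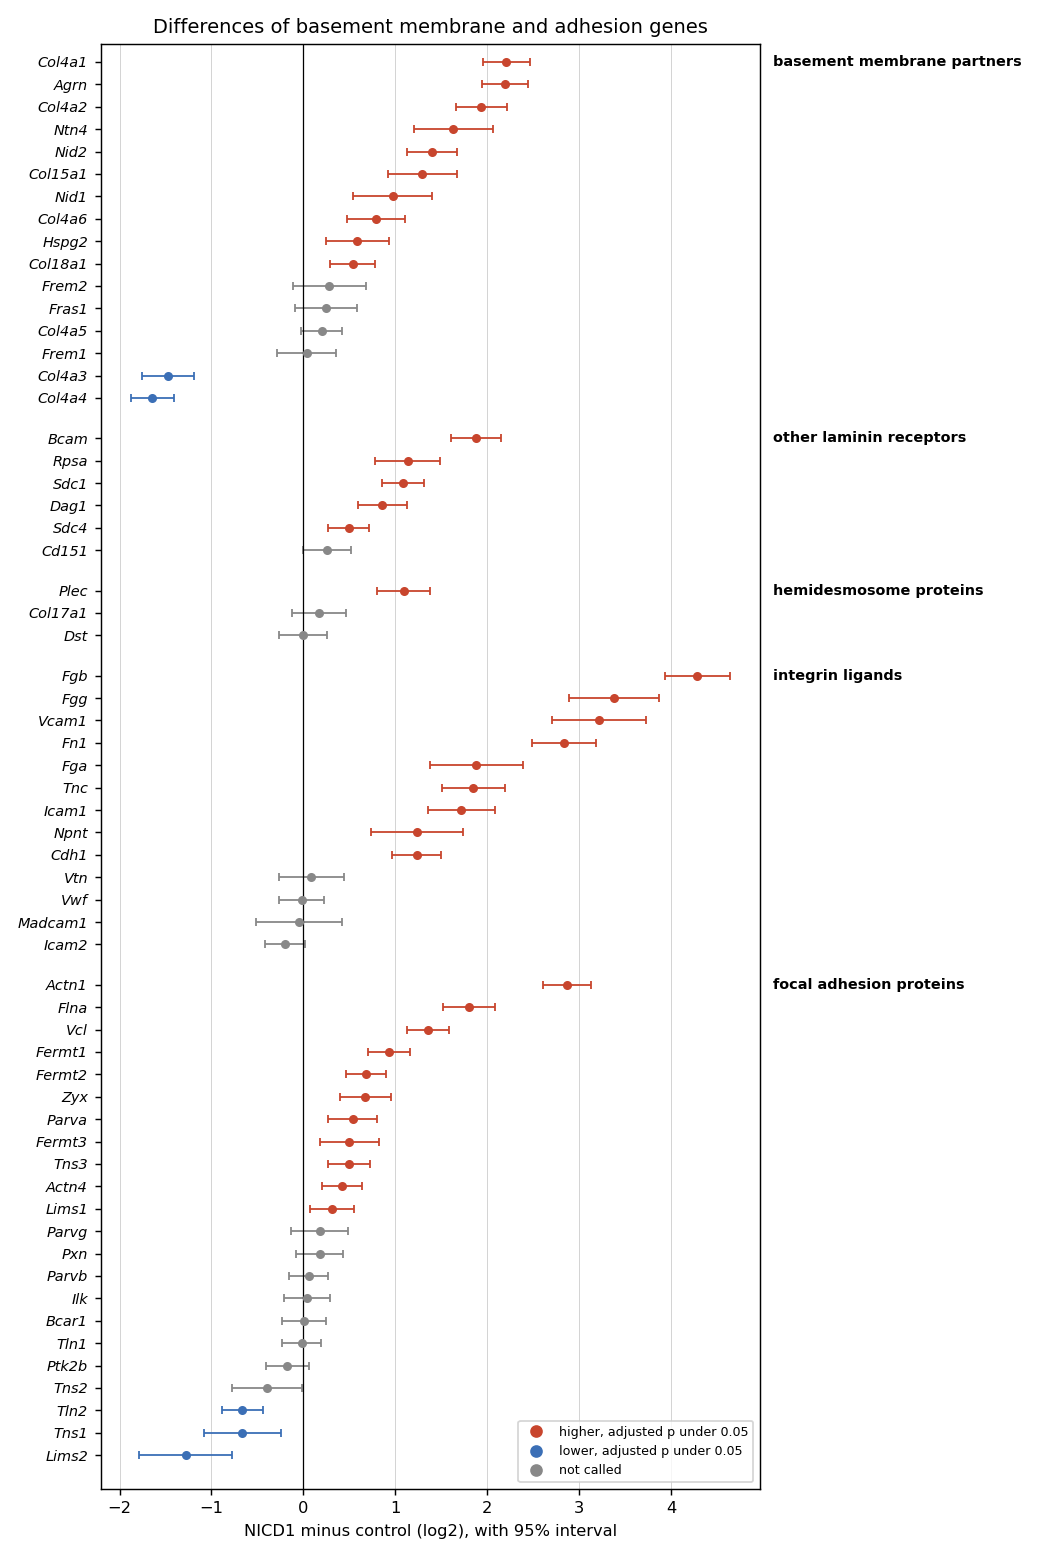
Difference of NICD1 and control in log2 units (horizontal axis) for 60 genes of 5 lists of laminin and integrin partners, with the unadjusted 95% interval of limma's moderated test; colours mark calls at adjusted p under 0.05. Fgb at 4.28 and Fgg at 3.38 lie farthest to the right, and Col4a4, Col4a3, Lims2, Tns1 and Tln2 are the 5 called lower.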

How the data were processed

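Per the labels' protocols, RNA was extracted with TRIzol and labelled with the Affymetrix one-cycle kit, and the authors normalized the arrays in GeneSpring with RMA16. The deposited values are log2 expression per probe set. RMA compresses differences of dim genes and largely removes a shift shared by all genes. Versions, scan dates and detection calls are not given in the sources used here.

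Of 34760 probe sets, 6573 numbered below the lowest annotated one were left out. Each gene was represented by the single-symbol probe set with the highest mean, giving 19937 genes. 42 of 42 member probe sets matched the RefSeq gene table of GRCm38.p6 by Entrez identifier, with 0 symbols changed. Groups were compared by limma (version 3.58.1, R 4.3.3; group only, two-sided, Benjamini-Hochberg over all genes). SD is over n = 3 arrays per group. SE is limma's moderated standard error of the difference between groups, in which each gene's variance is drawn toward that of all genes. All members are named, with the up to 4 genes of lowest p in each partner list and others as said. Members and lists were chosen with earlier results of these data known. On simulated arrays of 19937 genes, the fit of NICD1 against control called 24.7% of 73 genes given a change of 0.5 log2. It called 79.1% of 67 given 1 log2 and 95% of 60 given 2 log2. The genes given a change were a far smaller share than the 32.7% called in the data. An adjusted p under 0.05 was therefore harder to reach in the simulation, and its rates need not hold for these arrays. The 16 alternatives tried are given in the closing section.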

Additional observations from a re-analysis of the deposited data

How the results depend on the processing

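Of the 22 members called, 19 were also called in the same direction under each of the 14 alternatives that keep the threshold (among those not in the dimmest 40%, where that filter applies). The exceptions were Itgad, Itgax and Itgb1bp2. A minimum of 2-fold ended 8 of the 22 calls, and adjusted p under 0.01 ended 3. At 2-fold, 927 of all genes were higher and 1057 lower, 1 of the other integrins was higher and 0 lower, and the leukocyte integrins had 0 lower. Leukocyte integrins lower, 1 in the comparison as reported, became 0 with the mean over probe sets, with the second probe set and at 0.01. Laminins lower became 2 after centring, and other integrins higher 4 with array weights. In the partner lists, 37 of 41 calls held under the same 14 alternatives, applied to them after the data were seen, and at 2-fold 22 genes were higher and 3 lower. The calls lost were those of Hspg2, Fermt3, Lims1 and Tns1, and 9 partner genes that were not called, Dst and Tln1 among them, turned in sign. Leaving out each array in turn gave 2816 to 3488 genes higher and 2459 to 2811 lower, 0 to 1 leukocyte integrins lower and 2 to 4 other integrins higher, the 4 without NICD1 replicate 3. The epithelial integrins kept counts of 6 higher and 1 lower throughout these fits.

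Signs turned only for members that were not called, and for Itgad with its second probe set (0.067). Leaving out arrays gave -0.085 to 0.15 for Itga10, -0.20 to 0.091 for Itga2b, -0.022 to 0.35 for Itga4, -0.090 to 0.043 for Itgb3bp and -0.17 to 0.0050 for Itgbl1. Itga10 turned with quantile normalization (-0.064), centring (-0.093) and without control replicate 2, control replicate 3 or NICD1 replicate 3. Itga2b turned with array weights (0.0089) and without control replicate 1 or NICD1 replicate 1, Itga4 without NICD1 replicate 1 and Itgav with centring (-0.057). Itgb3bp turned without control replicate 1, control replicate 2 or NICD1 replicate 2, and Itgbl1 with array weights (0.033) and without control replicate 1. The cause was not tested.

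With the replicate number as a block, 3219 genes were higher and 2762 lower, and no member changed its call. Same-numbered samples did not deviate together (correlations of -0.069, -0.012 and -0.070), and 0 of 6 samples correlated best with their own number, so the numbers were not used as pairs. With 3 arrays a group and no detection calls, differences under about 0.5 log2 and members under the array medians are weakly resolved.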
